A study of Mus musculus with 7 samples.

Results

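The complement genes described here are 3 chains of the recognition molecule of the classical pathway (C1qa, C1qb and C1qc), the central component C3, factor B (Cfb) and properdin (Cfp) of the alternative pathway, the anaphylatoxin receptors C3ar1 and C5ar1, and the inhibitor Serping1. The 9 genes were listed by name, and for each the brightest probe set with exactly 1 gene symbol was taken. Of the 9 genes, 8 were measured, each by 1 probe set, among 19938 genes in all. The probe table used here pairs no probe set with C3, so C3 is not analysed here. The values come from 7 Affymetrix arrays. Each held RNA of FACS-sorted macrophages from the lamina propria of the colon, taken from C57BL/6 mice 6 weeks old.

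The control mice (WT) carried the reporter allele Cx3cr1gfp/+, in which green fluorescent protein replaces 1 copy of the fractalkine receptor gene. Il10_KO stands for IL10-/- CX3CR1gfp/+ mice, which lack interleukin-10, a cytokine that restrains inflammatory gene expression. Il10ra_mKO stands for CX3CR1cre:IL10Raflox/flox mice, in which Cre recombinase made from Cx3cr1 removes the ligand-binding chain of the interleukin-10 receptor from cells that express Cx3cr1. The labels call the cells of 2 arrays, 1 WT and 1 Il10_KO, CX3CR1hi macrophages and those of the other 5 arrays, 3 WT and 2 Il10ra_mKO, resident macrophages. WT and Il10ra_mKO therefore differ in the Cx3cr1 allele as well as in Il10ra, and no array carried Cre alone. Il10ra lay at log2 10.56, 10.76 and 11.12 in resident WT and at 8.05 and 7.04 in Il10ra_mKO. Both mutant arrays were below all WT arrays, with a difference of -3.27 ± 0.38 (SE, adjusted p = 0.243 by limma). In the CX3CR1hi arrays it was at 11.32 in WT and 11.61 in Il10_KO. The labels do not say whether the arrays of 1 group came from separate mice or from pools, so the tests measure only the spread between these arrays, which may be technical.

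Complement is a cascade of plasma and cell-derived proteins that tags microbes and dying cells for uptake and recruits inflammatory cells. C1q starts the classical pathway when it binds antibody or exposed surfaces, and tissue macrophages are a main source of it. Factor B and properdin build and stabilise the convertase of the alternative pathway, which amplifies the cleavage of C3, and the receptors sense the small fragments released from C3 and C5. Serping1, the C1 inhibitor, blocks the proteases bound to C1q.

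C1qb, C1qc and C1qa lie next to each other in this order in the RefSeq annotation of GRCm38.p6. The sequences before the starts of C1qb and C1qc are shown because the C1q genes varied little, by at most 0.55 log2 units over the 7 arrays. RefSeq promoter windows of GRCm38.p6, 250 bases before to 50 bases after a start site, matched 6 of the 9 genes (C1qb, C1qc, C3, Cfp, C3ar1 and C5ar1). The C1qb sequence is chr4:136886201-136886450 and the C1qc sequence chr4:136892915-136893164, both on the minus strand and both printed as the 250 bases before the start, with matches to the motifs searched in capitals.
C1qb: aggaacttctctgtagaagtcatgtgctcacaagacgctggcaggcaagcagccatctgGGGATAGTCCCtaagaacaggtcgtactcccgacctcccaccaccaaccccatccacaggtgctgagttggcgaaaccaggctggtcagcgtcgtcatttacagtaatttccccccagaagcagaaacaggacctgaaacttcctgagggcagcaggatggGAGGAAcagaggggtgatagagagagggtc
C1qc: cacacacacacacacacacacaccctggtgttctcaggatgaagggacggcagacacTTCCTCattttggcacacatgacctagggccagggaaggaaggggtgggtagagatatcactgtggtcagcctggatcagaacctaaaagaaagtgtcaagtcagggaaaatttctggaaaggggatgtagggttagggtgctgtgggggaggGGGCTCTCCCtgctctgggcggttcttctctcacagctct
The sequences run 5′ to 3′. The motifs searched on both strands were GAAA, any 2 bases and GAAA (ISRE, bound by interferon-activated factors), TTCNNNGAA (GAS, bound by STAT proteins), GGGA, any 4 bases and CC (kappaB, bound by NF-kB), GAGGAA (the core bound by the myeloid factor PU.1) and TTGCNNCAA (C/EBP). Both C1q windows held the PU.1 core, as did 28.3% of all 32851 windows, and both held a kappaB match, as did 20.7% of all windows. In C1qb the kappaB match was found on either strand at overlapping positions. ISRE, GAS and C/EBP letters, present in 3.44%, 8.3% and 2.08% of all windows, were not found in the windows of these genes. The Cfp window held the PU.1 core only after the start, and those of C3ar1 and C5ar1 held none of the 5 motifs. A match describes letters and is no binding site.

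In the Il10ra_mKO arrays Cfb had several times more RNA than in resident WT. The C1q chains, properdin, the receptors and Serping1 all differed by less than 1.5-fold. Cfb was also higher in the Il10_KO array than in its WT partner. Of the 8 measured genes, 0 passed an adjusted p of 0.05 for Il10ra_mKO and 1, Cfb, passed for Il10_KO. By limma 1 of 19938 genes passed for Il10ra_mKO (0.00502%) and 1576 passed for Il10_KO (7.9%). The gene that passed for Il10ra_mKO was Fcrls, an Fc receptor-like gene, lower by 4.29 on the log2 scale (adjusted p = 0.0194), and is named after its value was seen. It did not pass without any one of the 3 WT arrays (adjusted p = 0.269 to 0.553). The all-gene counts move with single arrays: without WT arrays 1, 2 and 3 in turn 0 genes passed each time for Il10ra_mKO by limma (1287, 946 and 1501 at an unadjusted p under 0.05), and 266 and 267 without either mutant array. For Il10_KO 559 passed without WT array 2, and 2788 and 2787 without either Il10ra_mKO array. At an unadjusted p under 0.05, 1 of the 8 genes, again Cfb, was called for Il10ra_mKO, against 7.92% of all genes, and 1 for Il10_KO, against 22.0%. The median difference of the 8 genes was 0.07 for Il10ra_mKO and 0.16 for Il10_KO on the log2 scale, and that of all genes 0.00 and 0.03.

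**Figure D1:**
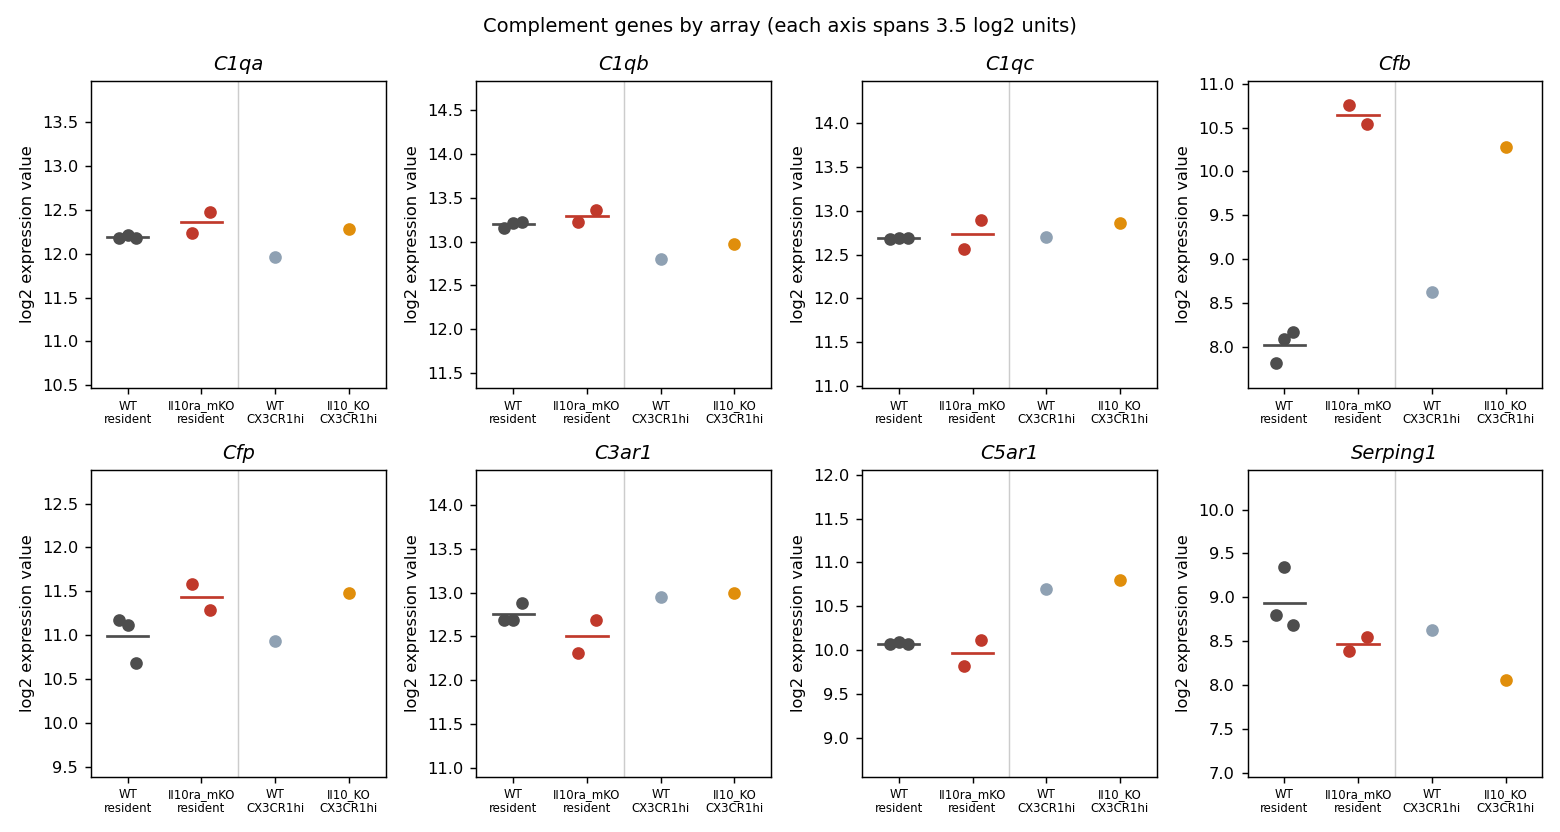
Deposited log2 expression value (vertical axis) of the 8 measured genes in each array (points), by group, with the group mean as a bar where a group holds more than 1 array, with axes of equal span. Cfb lies at 10.75 and 10.55 in Il10ra_mKO, above 7.81 to 8.17 in resident WT, while the C1q chains stay within 0.55 log2 units over all 7 arrays.

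Cfb encodes factor B, the protease subunit of the alternative pathway convertase. Its log2 value was 7.81, 8.09 and 8.17 in resident WT and 10.75 and 10.55 in Il10ra_mKO. The lowest Il10ra_mKO array was thus far above the highest WT array, and the gap between the groups exceeded the spread within either. The difference was 2.62 ± 0.15 on the log2 scale (SE, 2 against 3 arrays), a 6.17-fold higher level, with a 95% interval of 2.21 to 3.04. It ranked 19th highest of 19938 differences and did not pass over all genes (adjusted p = 0.123 by limma). Its size stayed between 2.52 and 2.73 over 17 alternative settings, while its adjusted p ran from 0.000289 to 0.553 and lay under 0.05 in 4 of them.

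In the CX3CR1hi arrays Cfb was at 8.62 in WT and 10.28 in Il10_KO. Levels are not set against the resident arrays here, since the sort labels differ in extraction kit and may differ in processing. Cfb rose by 1.66 ± 0.23 on the log2 scale (SE, 1 against 1 array), or 3.16-fold, with a 95% interval of 1.01 to 2.30 (adjusted p = 0.0357 by limma). With 1 array on each side, the spread comes from the resident arrays, and the CX3CR1hi arrays are assumed to vary as those do. The call was lost in 11 of 14 alternative settings, with adjusted p from 0.0352 to 0.235, among them the fits without WT array 2 (adjusted p = 0.111), without WT array 3 (0.0763) and without either Il10ra_mKO array (0.0622 and 0.0621). The difference itself stayed between 1.62 and 1.66.

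The equal values in the deposited table bear on this test. In 60.4% of the genes at least 2 of the 5 resident arrays held exactly the same value, and in 10.5% all 3 resident WT arrays did, whereas 0 of the 19938 genes had equal values in both CX3CR1hi arrays. Spreads taken from the resident arrays are therefore at or near 0 for many genes. Cfb itself had 5 different values in the 5 resident arrays. When only the 7901 genes with 5 different values were tested, a setting chosen after seeing the data, the adjusted p of Cfb was 0.00336 for Il10ra_mKO and 0.167 for Il10_KO, and 209 and 0 genes passed (at an unadjusted p under 0.05 the Il10_KO comparison still called 659).

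The Il10ra_mKO difference of Cfb exceeded the Il10_KO difference by 0.97 ± 0.27 on the log2 scale (SE), and this did not pass (adjusted p = 0.216 by limma). For the difference of both effects 0 of the 8 genes passed by limma, against 4.7% of all genes, and 1, Cfb, had an unadjusted p under 0.05, against 15.8%. A difference of at least 2-fold upwards in both comparisons was met by Cfb and by 0.451% of all genes.

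**Figure D2:**
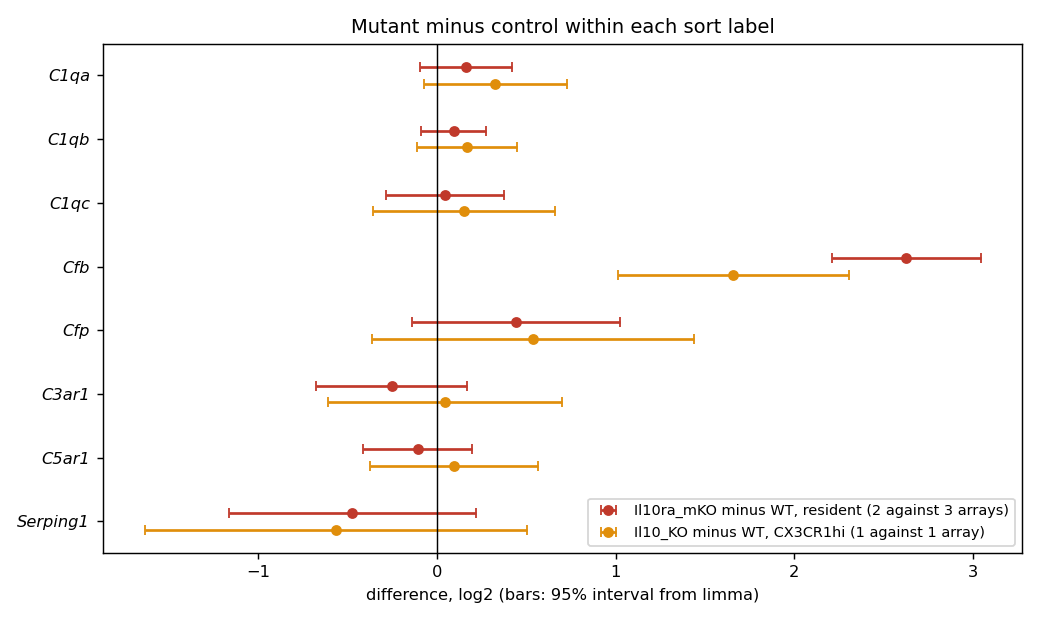
Difference in log2 value between mutant and control (horizontal axis) for the 8 measured genes, with the 95% interval from limma as bars; red, Il10ra_mKO minus WT in resident arrays (2 against 3 arrays); orange, Il10_KO minus WT in CX3CR1hi arrays (1 against 1). The intervals of Cfb, from 2.21 to 3.04 and from 1.01 to 2.30, exclude 0, and those of the other 7 genes include it.

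Properdin (Cfp), which stabilises the alternative pathway convertase, lay at 11.17, 11.11 and 10.68 in resident WT and at 11.59 and 11.28 in Il10ra_mKO. Both mutant arrays were above all 3 WT arrays. The difference was 0.44 ± 0.21 (SE), with a 95% interval of -0.14 to 1.03 (adjusted p = 0.678), and 0.29 without either WT array 3 or Il10ra_mKO array 1. Among CX3CR1hi arrays Cfp was at 10.94 in WT and 11.47 in Il10_KO, a difference of 0.54 ± 0.32 that did not pass (adjusted p = 0.441).

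The C1q chains form the arms and globular heads that recognise antibody and dying cells. C1qa lay at 12.18, 12.22 and 12.18 in resident WT and at 12.23 and 12.48 in Il10ra_mKO. For C1qb the WT arrays gave 13.16, 13.21 and 13.22 and the Il10ra_mKO arrays 13.22 and 13.36. C1qc was almost level in WT (12.68, 12.69 and 12.69) and lay at 12.56 and 12.90 in Il10ra_mKO. In Il10ra_mKO array 2 each chain was above every resident WT array, while in array 1 C1qb equalled a WT array and C1qc was below all 3.

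The Il10ra_mKO differences were 0.16 ± 0.09 for C1qa, 0.09 ± 0.06 for C1qb and 0.04 ± 0.12 for C1qc (SE, adjusted p = 0.678, 0.678 and 0.912). The 95% intervals reached from -0.09 to 0.42 for C1qa, from -0.09 to 0.28 for C1qb and from -0.28 to 0.37 for C1qc. Without Il10ra_mKO array 1 the differences of C1qa and C1qb were 0.29 and 0.16, and without array 2 they were 0.04 and 0.03. The C1qc difference turned to -0.12 without Il10ra_mKO array 2 and to -0.06 after quantile normalization. In the CX3CR1hi arrays the chains were at 11.96, 12.80 and 12.70 in WT and reached 12.29, 12.97 and 12.86 in Il10_KO, in the order C1qa, C1qb and C1qc. All 3 were slightly higher in Il10_KO, by 0.33 ± 0.14, 0.17 ± 0.10 and 0.15 ± 0.18, without passing (adjusted p = 0.308, 0.437 and 0.701).

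Within each array Cfb moved apart from the C1q chains. The deviation of Cfb from the WT mean of its sort label, less the mean deviation of the 3 chains, was -0.19, 0.05 and 0.14 in the resident WT arrays. It was 2.75 and 2.30 in the 2 Il10ra_mKO arrays, above each resident WT array, and 1.44 in Il10_KO against its 1 WT partner, whose own deviation is 0 by construction. By role, the mean deviation of the classical genes was -0.02 and 0.22 in the Il10ra_mKO arrays and 0.22 in Il10_KO. That of the receptors was -0.35 and -0.01 in Il10ra_mKO and 0.07 in Il10_KO.

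C3ar1 and C5ar1 are the G protein-coupled receptors for the anaphylatoxins C3a and C5a. C3ar1 lay at 12.69, 12.69 and 12.88 in resident WT and at 12.31 and 12.69 in Il10ra_mKO. For C5ar1 the WT arrays gave 10.07, 10.09 and 10.07 and the Il10ra_mKO arrays 9.82 and 10.12. Il10ra_mKO array 1 was the lowest resident array for both receptors, and array 2 equalled WT arrays 1 and 2 for C3ar1 and was slightly above WT for C5ar1. The differences were -0.25 ± 0.15 for C3ar1 and -0.11 ± 0.11 for C5ar1, with 95% intervals of -0.68 to 0.17 and -0.41 to 0.20 (adjusted p = 0.678 and 0.765). Without Il10ra_mKO array 1 the C3ar1 difference was -0.06 and that of C5ar1 turned to 0.05, and without array 2 they were -0.44 and -0.26. In the CX3CR1hi arrays C3ar1 was at 12.94 in WT and 12.99 in Il10_KO, and C5ar1 at 10.70 and 10.80. The differences of 0.05 ± 0.23 and 0.10 ± 0.17 did not pass (adjusted p = 0.937 and 0.797).

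Serping1, the inhibitor, was lower in each mutant. It lay at 8.79, 9.35 and 8.68 in resident WT and at 8.39 and 8.55 in Il10ra_mKO. Both mutant arrays were below all 3 WT arrays, but WT array 2 lay farther from the other WT arrays than these lay from the mutants. The difference was -0.47 ± 0.24 (SE), with a 95% interval of -1.16 to 0.22 (adjusted p = 0.678), and -0.27 without WT array 2. Among CX3CR1hi arrays it was at 8.63 in WT and 8.06 in Il10_KO, a difference of -0.56 ± 0.38 that did not pass (adjusted p = 0.494).

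In total 3 of the 8 genes (C1qa, Cfb and Cfp) had both Il10ra_mKO arrays above all resident WT arrays, which held for 8.92% of all genes, and 1 (Serping1) had both below, which held for 8.5%. The sample numbers in the titles of the resident arrays form 2 runs. Run 1 holds Il10ra_mKO array 1 and WT arrays 1 and 2, and run 2 holds Il10ra_mKO array 2 and WT array 3. The labels do not say what a run shares. Within these runs, in this order, Cfb was 2.80 and 2.37 higher in the mutant and Cfp 0.44 and 0.60 higher. C3ar1 differed by -0.38 and -0.19 and Serping1 by -0.68 and -0.13. C1qa (0.04 and 0.30) and C1qb (0.04 and 0.13) were higher in both runs, while C1qc (-0.12 and 0.21) and C5ar1 (-0.26 and 0.05) changed sign. For the fit with the runs as a block, both CX3CR1hi arrays were placed in run 1. The differences were then 0.51 ± 0.06 for Cfp and -0.30 ± 0.07 for C3ar1 (SE), with smaller errors than without the block. The errors of Cfb (0.17) and Serping1 (0.27) were larger than without it. With the block 0 of the 8 genes passed for Il10ra_mKO by limma (adjusted p = 0.23 for Cfp and 0.336 for C3ar1). In bulk RNA of sorted cells, fewer cells of a type and less RNA per cell cannot be told apart.

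Markers of other cell types differed between the groups as well. The 11 measured macrophage markers had a mean log2 value of 10.87 to 11.03 in resident WT. Both Il10ra_mKO arrays had a mean between 10.82 and 11.03. This mean joins opposite differences, as 6 markers were higher in Il10ra_mKO and 5 lower. The largest were -1.70 for Cd163 and -0.78 for Mrc1 downwards, and 0.95 for Mertk and 0.64 for Aif1 upwards (log2 scale). Each of the 11 lay above 5.86, the median over the table, in 2 or more arrays. The 13 epithelial markers (highest Krt8) lay above it too, with means of 10.47 to 10.84 in WT and of 10.60 and 8.86 in Il10ra_mKO. The Cfb level was 10.75 in the array with an epithelial mean of 10.60 and 10.55 in the array with 8.86. Monocyte markers had means of 7.05 to 7.38 in WT and 8.46 and 7.73 in Il10ra_mKO, and 5 of 7 were higher in Il10ra_mKO. The highest marker, Ccr2, lay at 9.75 to 11.33 in WT and at 10.65 and 10.64 in Il10ra_mKO. The largest monocyte differences there were 3.12 for F10 and 1.73 for Hp upwards, and -0.25 for Vcan downwards (log2 scale). Neutrophil markers (highest Csf3r) had means of 5.71 to 5.77 in WT and 6.42 and 6.00 in Il10ra_mKO, and 9 of 9 were higher. Only 4 of the 7 monocyte and 2 of the 9 neutrophil markers lay above the table's median in 2 or more arrays. The part of these other cell types in the Cfb difference was not tested. In the CX3CR1hi arrays, WT before Il10_KO, the mean was 6.99 and 7.28 for monocytes, 5.71 and 5.91 for neutrophils and 11.27 and 10.72 for epithelium.

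Fibroblast and muscle markers were lower in the mutants, as Serping1 was. Their mean was 6.85 to 7.21 in resident WT and 6.5 and 6.36 in Il10ra_mKO, and 6.88 in WT and 6.33 in Il10_KO among the CX3CR1hi arrays. Of the 13 markers, 9 lay above the table's median in 2 or more arrays. In Il10ra_mKO 11 of 13 were lower. Dcn, a matrix proteoglycan of fibroblasts, lay between 10.63 and 11.39 in WT but at 9.26 and 9.68 in the Il10ra_mKO arrays. The part of these cells in the Serping1 difference was not tested. Over the other lists the mean in resident WT and in Il10ra_mKO was 6.42 to 6.67 and 6.92 and 7.08 for dendritic cells (highest marker Cd24a) and 7.53 to 7.72 and 7.90 and 8.54 for B and plasma cells (Jchain). It was 5.99 to 6.22 and 6.19 and 6.30 for T cells and ILC (Cd4), 5.93 to 6.18 and 5.85 and 5.78 for endothelium and glia (Lyve1), and 5.20 to 5.28 and 5.36 and 5.26 for mast cells and eosinophils (Kit). The dendritic mean joins opposite differences in Il10ra_mKO. Of its 9 markers 2 were lower, Cd24a (-1.13) and Siglech (-1.61), while Clec9a (2.91) and Ccr7 (2.31) rose most. Of the 7 B and plasma cell markers 5 were higher and 2 lower, from 1.55 for Ms4a1 to -0.17 for Jchain.

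**Figure D3:**
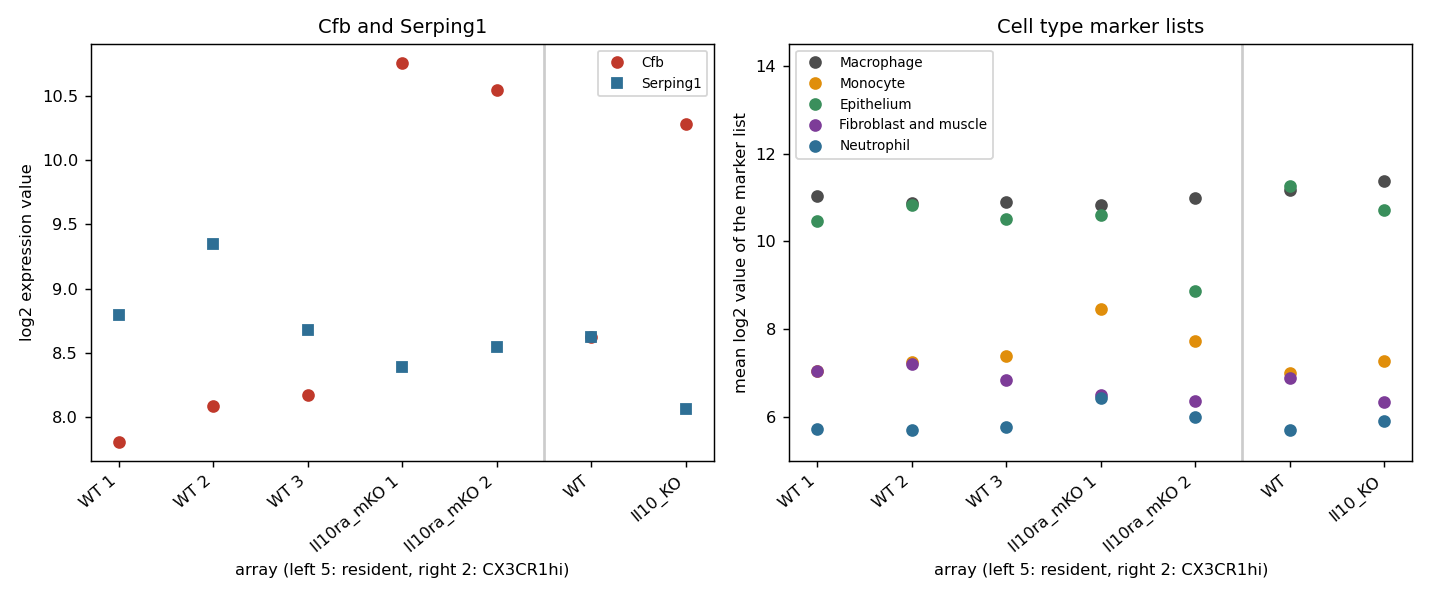
Left, log2 value of Cfb and Serping1 in each array; right, mean log2 value of 5 cell type marker lists in the same arrays; 5 resident arrays stand left of the grey line and 2 CX3CR1hi arrays right of it. Cfb is above 10 in all 3 mutant arrays, while the epithelial mean runs from 8.86 to 10.72 in them and the fibroblast mean from 6.33 to 6.5.

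Of 49 other complement genes on a list of the pathway, 46 were measured and 18 of these lay above that median in 2 or more arrays. In Il10ra_mKO 21 were higher, 24 lower and 1 equal, 0 passed, and 3 higher and 1 lower had an unadjusted p under 0.05 by limma. These 4 of 46 stand against 7.92% of all genes. Their median difference was -0.003, and that of all genes 0.0. In Il10_KO 29 were higher and 17 lower, and 5 of 46 passed, 3 higher and 2 lower, against 7.9% of all genes. Their median of 0.03 equalled that of all genes. With genes below the brightness filter left out, 0 of them passed in Il10_KO.

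Among classical pathway genes, C4b, whose product forms part of the classical convertase, lay at 8.28, 7.82 and 6.94 in resident WT and at 8.38 and 8.80 in Il10ra_mKO. The mutant arrays were highest, but WT array 3 lay far below the other WT arrays, and the difference of 0.91 ± 0.47 did not pass (adjusted p = 0.678). C1ra, a protease bound to C1q, was 0.45 ± 0.13 higher in Il10ra_mKO, at 7.02 and 7.06 against 6.37 to 6.74 in WT (adjusted p = 0.539). It was 0.85 ± 0.21 higher in Il10_KO (adjusted p = 0.12).

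C2, the classical counterpart and neighbour of Cfb, had equal values of 5.70 in all 3 resident WT arrays and lay at 5.92 and 5.61 in Il10ra_mKO, on either side of WT. In the CX3CR1hi arrays it was at 5.27 in WT and 6.06 in Il10_KO, a difference of 0.79 ± 0.16 that did not pass (adjusted p = 0.082). Over the 5 resident arrays Cfb ran from 7.81 to 10.75. Cfb and C2 are related in sequence, and whether their probe sets share signal was not tested.

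C6, a subunit of the membrane attack complex, rose in Il10_KO by 1.29 ± 0.19 (adjusted p = 0.0424), at 9.54 against 8.24 in WT. The call was lost in 11 of 14 alternative settings, with adjusted p from 0.0227 to 0.24, among them those without WT array 1, 2 or 3 (0.092, 0.129 and 0.101). Resident WT values of C6 were 7.18, 7.24 and 7.34, and the Il10ra_mKO values 7.52 and 7.84 were 0.43 ± 0.12 higher without passing (adjusted p = 0.535). C4a, Susd4, Clu and Csmd1 passed as well, with differences of 0.27, 0.16, -0.36 and -0.08. No change is read from these 4 calls: the genes lay below the brightness filter, and their errors of 0.01 to 0.02 come from resident arrays that hold equal values, 4 of 5 for Clu and for Csmd1. C4bp lay below the filter too.

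Among receptors, Itgb2, the beta chain of complement receptors 3 and 4, was at 10.50, 10.72 and 10.66 in resident WT and at 11.10 and 11.38 in Il10ra_mKO. Both mutant arrays were above WT, by 0.61 ± 0.13 (adjusted p = 0.407), and Il10_KO was 0.54 ± 0.19 above its WT partner (adjusted p = 0.231). Cd93, once named a C1q receptor, lay between 11.63 and 11.95 in WT, against 10.70 and 11.37 in the Il10ra_mKO arrays. It was lower there by 0.72 on the log2 scale without passing (adjusted p = 0.613), and level in Il10_KO (0.06 ± 0.39).

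Among lectin pathway genes, Fcna, which encodes ficolin A, lay at 6.77, 6.23 and 5.62 in resident WT and at 5.39 and 5.13 in Il10ra_mKO, and the scavenger receptor collectin Colec12 at 6.49, 6.25 and 5.85 and at 5.69 and 5.68. Their differences of -0.95 ± 0.39 and -0.51 ± 0.22 did not pass (adjusted p = 0.678 for both). In Il10_KO the lowest differences were those of C4bp (-1.0 ± 0.16), Colec12 (-0.93 ± 0.33) and Cd55 (-0.80 ± 0.31), the last an inhibitor of convertases on the cell surface. None of these 3 passed (adjusted p = 0.052, 0.235 and 0.266).

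**Figure D4:**
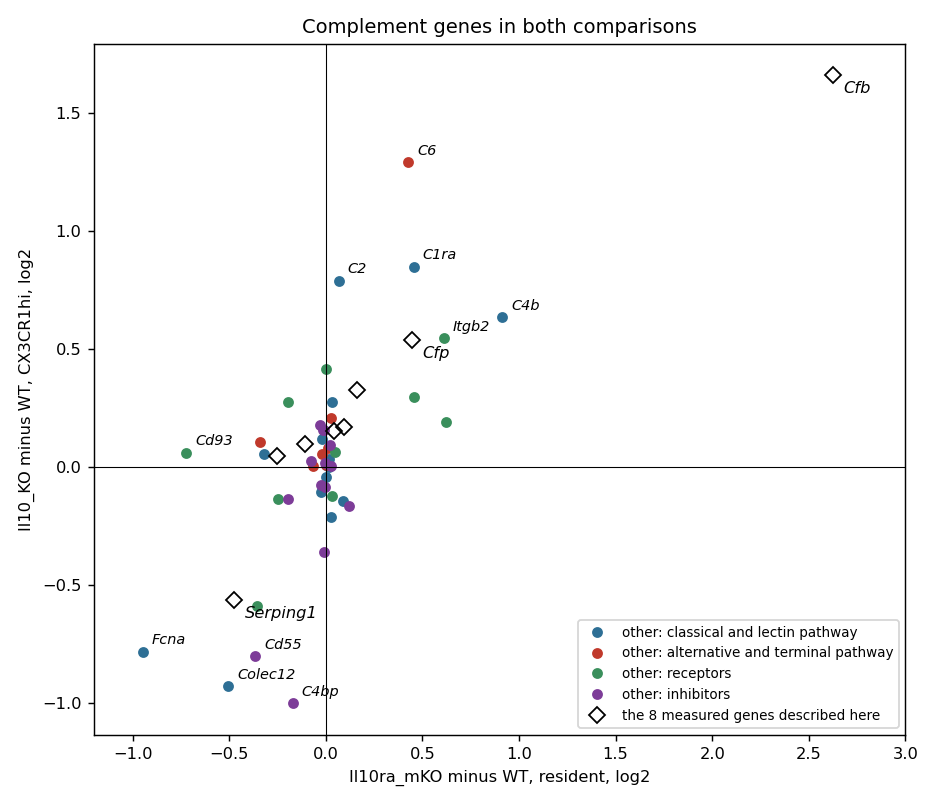
Log2 difference in Il10ra_mKO against resident WT (horizontal axis) and in Il10_KO against CX3CR1hi WT (vertical axis) for 46 other complement genes (filled points, by role) and the 8 measured genes described here (open diamonds). Cfb stands at 2.62 and 1.66, C6 at 0.43 and 1.29, and most other genes lie near 0 on both axes; the comparisons share no arrays.

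Across the 7 arrays Cfb spanned 2.94 log2 units and Serping1 1.29, and the other 6 genes 0.98 (C5ar1) or less. The genes whose values, centred on their own mean, differed least from Cfb over the 7 arrays were Gbp5, an interferon-induced GTPase (root mean square difference 0.26), the phospholipase gene Ddhd1 (0.29) and Cd300lf, an inhibitory receptor of myeloid cells (0.30). Gbp5, chosen by this likeness, was 2.29 higher in Il10ra_mKO and 1.48 higher in Il10_KO on the log2 scale, which is no independent result. Those nearest to Serping1 were Fkbp4, a chaperone partner (0.11), the fucosyltransferase gene Fut9 (0.12) and the laminin gene Lamb1 (0.12). Each of these was highest in resident WT array 2, as Serping1 was, and their likeness is no independent result either.

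Between the control arrays, C1qb was lower in CX3CR1hi WT (12.80) than in resident WT (13.16 to 13.22), and C5ar1 was higher (10.70 against 10.07 to 10.09). These differences, -0.39 ± 0.08 and 0.63 ± 0.14, passed (adjusted p = 0.021 and 0.0239), 2 of the 8 genes against 55.7% of all genes. At an unadjusted p under 0.05 it was 3 of the 8 genes against 62.3%. Both calls were lost after quantile normalization (adjusted p = 0.169 and 0.184), with median centring (0.105 and 0.0621) and without WT array 2 (0.0749 and 0.0755) or WT array 3 (0.0556 and 0.0694), and that of C5ar1 without WT array 1 (0.0736). The extraction protocol names one kit for samples 1 and 2 and another for samples 3 to 7, so sort label and kit cannot be told apart. Cfb was 0.60 ± 0.19 higher in CX3CR1hi WT without passing (adjusted p = 0.0596), and 0.18 after quantile normalization.

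**Figure D5:**
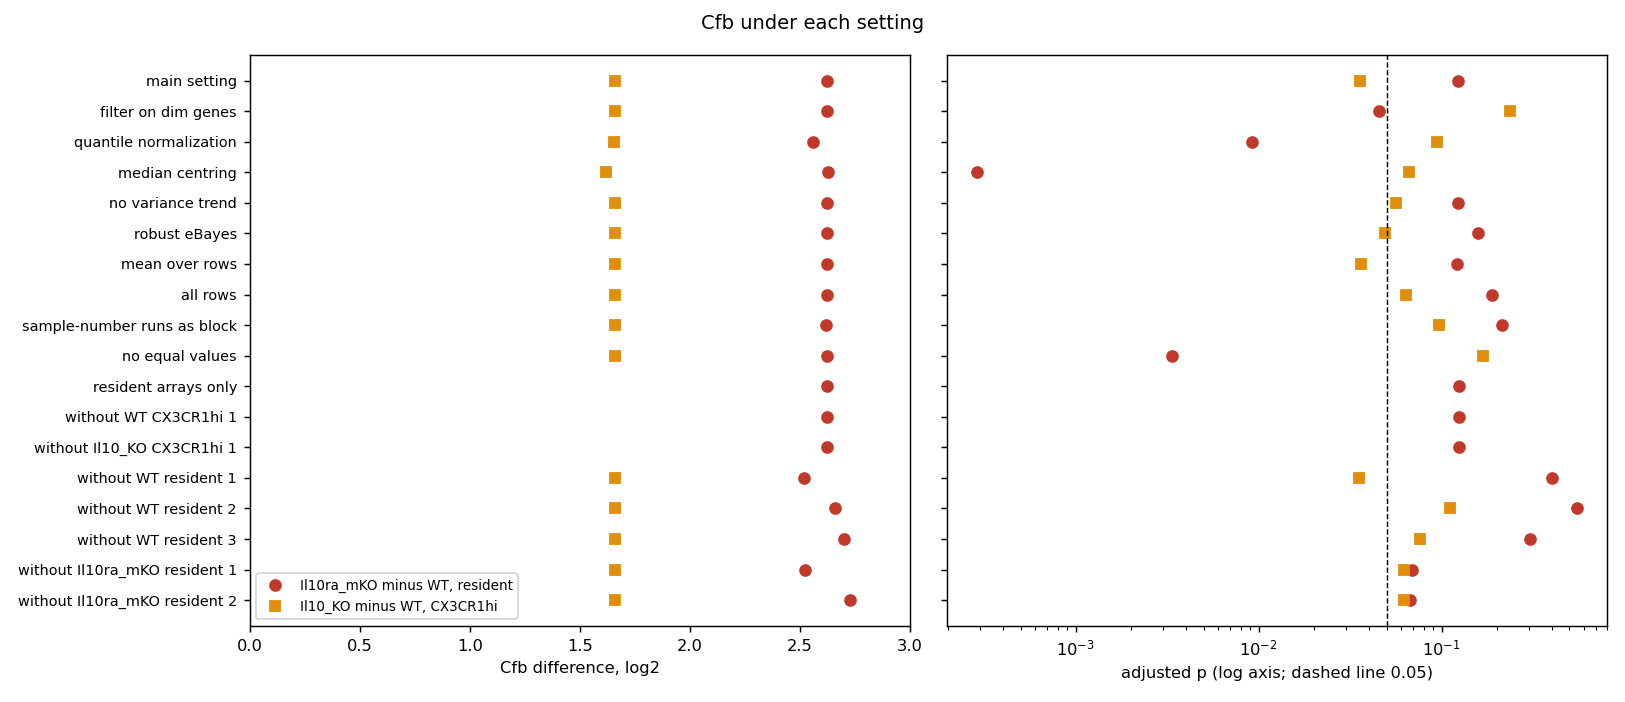
Left, log2 difference of Cfb under each setting (rows); right, its adjusted p on a log axis, with 0.05 as a dashed line; circles, Il10ra_mKO minus WT; squares, Il10_KO minus WT, which has no value where its own arrays or its sort label were left out. The differences stay between 2.52 and 2.73 and between 1.62 and 1.66, while the adjusted p crosses 0.05 in both comparisons.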

How the data were processed

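Expression was measured in 7 arrays, and the authors deposited log2 values, made with RMA and Partek per the submitters' processing notes. Not given in the sources used here are tool versions, the genome build and whether RMA was run once for all 7 arrays. RMA pulls low values together, so folds of dim genes are understated, and the number of arrays limits precision. Groups follow the genotype and sort label. The table has 35399 rows, of which 21789 pair with 1 gene symbol, 1621 with several and 11989 with none. For genes with several rows the brightest was kept. Of the rows with 1 symbol, 21698 matched the RefSeq gene table of GRCm38.p6, used for names and neighbours only.

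The test was limma (version 3.58.1; R 4.3.3), fitted to all 7 arrays with a coefficient for each of the groups and a variance trend in eBayes. Mutants were contrasted with WT of their own sort label. The fit has 3 residual and 0.831 prior degrees of freedom. P-values are two-sided, adjusted by Benjamini-Hochberg over all 19938 genes, and called under 0.05. Data for Il10ra_mKO against WT were simulated over 19938 genes. All 100 genes changed by log2 3 and 89 of 100 changed by log2 1.5 were recovered, with 18 false calls. The simulation drew independent normal values with a lower limit on their spread and without equal values, unlike the deposited values. Its shares therefore need not hold for the deposited data. A fold of a group is 2 to the power of the log2 difference. Alternatives were a brightness filter (above the table's median in 2 or more arrays), quantile normalization, median centring, other variance models, other rows, runs of sample numbers as a block, resident arrays only, and each array left out. Figures were drawn with matplotlib 3.10.9.

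The genes, lists and tests were chosen with earlier results of these data known. Of other complement genes, the text names those with the 3 largest differences in each direction whose mutant arrays lay outside the WT arrays of their label, and those that passed; C2 was named so for Il10_KO. Like genes were the 3 with the smallest root mean square difference, for members spanning over 1 log2 unit, predicted genes and clones left out. Of each marker list the highest marker is named, Dcn among them, and for macrophages it was Lyz2. The other markers named were picked by their Il10ra_mKO difference, after the values were seen.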

Additional observations from a re-analysis of the deposited data

How the results depend on the processing

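The size of the Cfb difference held in the settings tried, and its side of the threshold did not. For Il10ra_mKO it lay at 2.62 with the brightness filter, at 2.56 after quantile normalization, at 2.63 with median centring and at 2.62 among genes with no equal values, and it passed in these 4, so that 1 of the 8 genes passed there against 0. For Il10_KO it lay at 1.66 with the filter, after quantile normalization, without a variance trend, over all rows, with runs of sample numbers as a block and among genes with no equal values, and at 1.62 with median centring. It did not pass in these 7 settings, so that 0 of the 8 genes passed there against 1. With each array left out in turn it was 2.52 to 2.73 and 1.66, and 0 to 1 genes passed for Il10_KO. The filter and the equal-value setting test fewer genes, and the cause of the changes was not tested in any of these settings. The number of all genes called for Il10_KO was 1576, and 2 with the filter, 21 after quantile normalization, 129 with median centring and 758 without a variance trend. For Il10ra_mKO it was 1, and 12, 114, 421 and 4.

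Of the other complement genes 0 to 2 passed for Il10ra_mKO and 1 to 8 for Il10_KO with an array left out, against 0 and 5, and 0 passed for Il10_KO with the filter. Of the control comparison 2 genes passed, 0 after quantile normalization, median centring or among genes with no equal values, and 0 to 3 with an array left out. Directions turned where values were near 0. For Il10ra_mKO C1qc was -0.056 after quantile normalization, and with an array left out it ran from -0.12 (without Il10ra_mKO array 2) to 0.21 and C5ar1 from -0.26 to 0.046 (without Il10ra_mKO array 1). In the difference of both effects C1qc ran from -0.27 to 0.059, Cfp from -0.25 to 0.057 and Serping1 from -0.040 to 0.30. Between controls Cfp ran from -0.21 to 0.036, and it was 0.0068 without WT array 2. The labels give no replicate numbers that the groups share, so no fit with those was made. Runs of sample numbers as a block gave 2.62 for Cfb in Il10ra_mKO (adjusted p = 0.215) and ended the calls of Cfb in Il10_KO and of Fcrls in Il10ra_mKO (0.213).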
